A study of Mus musculus with 8 samples.

Results

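The mitochondrial ribosomal proteins were examined in the brown adipose tissue (BAT) of mice whose aorta was narrowed by thoracic aortic constriction (TAC). Members were all genes whose symbol, mapped from the RefSeq accession of the array probe, starts with Mrpl or Mrps and a digit. This gave 78 genes, 49 named for the large and 29 for the small subunit, among 21154 genes with a probe. They are the 78 protein-coding symbols of this form in RefSeq. The signal was high enough to be tested for 77 of them, 48 of the large and 29 of the small subunit, among 14989 genes tested. The remaining gene, Mrpl21, was well above background on 0 of 7 arrays.

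Mitochondria hold ribosomes of their own, which translate the few proteins encoded by mitochondrial DNA, all of them parts of the respiratory chain and ATP synthase. The RNA of these ribosomes comes from mitochondrial DNA, whereas their proteins are encoded in the nucleus, made in the cytosol and imported. Some members have a homolog in the bacterial ribosome, and others are found in mitochondria and not in bacteria. The large subunit joins amino acids and passes the new chain through its exit tunnel to the inner membrane, and the small subunit reads the messenger RNA. BAT is rich in mitochondria, where the uncoupling protein Ucp1 turns the work of the respiratory chain into heat.

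The mice were male C57BL/6NCrSlc, operated on at 11 weeks and sampled at 13 weeks of age, with TAC or sham surgery (Sham) as the only difference between the groups in the labels. By the source names and the treatment protocol the surgery was 2 weeks earlier, and by the description line 4 weeks. Total RNA of BAT was hybridized to one-colour Agilent arrays, 4 per group, and the labels do not say whether tissue of several mice was pooled, so that p-values measure the spread between these samples. Scanner intensities were used for Sham replicates 2 to 4 and TAC replicates 1 to 4, and a table of intensities divided by the 75th percentile of each array was used for all 8 arrays, since Sham replicate 1 had the table only. A level is given as log2 of the intensity minus the 75th percentile of the array, and levels of different genes are not compared, because they come from different probes.

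No probe of the array passed an adjusted p of 0.05 (limma, Benjamini-Hochberg over 33359 probes), or 0% of the probes, with 0.0575 as the lowest value. Before adjustment, 1462 probes with a p under 0.05 were higher after TAC and 2813 lower. The 7 scanned arrays shared 1 slide, with Sham in the upper and TAC in the lower row, so that position and surgery cannot be told apart. Between 54.5% and 64.3% of the spots were well above background on an array. TAC replicate 1 stood apart: on the first principal component, with 39.3% of the variance, it lay at 89.6 and the other arrays between -32.6 and 3.58. The main results are therefore also given without it.

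Among the members with the smallest p, a promoter motif of the ETS factor GABPA, a known activator of nuclear genes for mitochondrial proteins, was present in some and absent in others. To show both, the 100 bases before the RefSeq start of 4 members are printed 5′ to 3′ on the strand of the gene (build GRCm38.p6), with the GABPA letters in capitals. The stretches are chr4:126046828-126046927 (plus strand), chr9:98601680-98601779 (minus strand), chr6:125192100-125192199 (plus strand) and chr11:94653691-94653790 (plus strand).
Mrps15: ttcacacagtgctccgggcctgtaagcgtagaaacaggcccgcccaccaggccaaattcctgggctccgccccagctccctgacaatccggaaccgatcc
Mrps22: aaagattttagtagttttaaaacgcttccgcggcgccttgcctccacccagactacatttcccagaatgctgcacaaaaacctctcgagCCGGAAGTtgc
Mrpl51: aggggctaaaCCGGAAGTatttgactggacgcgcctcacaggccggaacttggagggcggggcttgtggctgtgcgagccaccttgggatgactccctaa
Mrpl27: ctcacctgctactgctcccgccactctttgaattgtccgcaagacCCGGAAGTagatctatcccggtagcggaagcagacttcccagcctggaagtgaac

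Windows from 250 bases before to 50 bases after the start were held by RefSeq's promoter table for 69 members (75 windows) and were searched on both strands. CCGGAAGT (GABPA) was in 12 of the 75 windows, or 16%, against 3.89% of 32851 windows of all genes. AAGATGGC (YY1) was in 16% of the member windows against 2.75%, and GCGCATGC (NRF1, whose letters can overlap their own reverse complement and were counted once per window) in 10.67% against 2.71%. TGACGTCA (the cyclic AMP response element) was in 2.67% of the member windows against 1.79%, and TCAAGGTCA (estrogen-related receptors) in 0% against 0.423%. At least 1 of the 5 motifs was in 40% of the member windows and 10.74% of all windows. The median log2 fold change of the 12 tested members with the GABPA letters was -0.24, and that of the 56 tested members with a window but without them was -0.16. For the YY1 letters these medians were -0.19 and -0.16, and for NRF1 -0.12 and -0.17. These matches describe letters only.

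After TAC, 70 of the 77 members tested had a lower mean than in Sham, by a median of 0.16 on the log2 scale, which is 10.5% of the intensity. Over all genes tested 55.1% had a lower mean and the median log2 fold change was -0.03. None of the members passed an adjusted p of 0.05 (limma), with 0.268 as the lowest value. Before adjustment, 13 members (16.9%) with a p under 0.05 were lower, against 8.05% of all genes tested, and 0 were higher, against 3.97%. In 30 members (39.0%) every TAC array lay below every Sham array, which held for 10.8% of all genes, and in 0 members did every TAC array lie above every Sham array, against 5.36%. In whole tissue, fewer cells of a type and less of an RNA per cell cannot be told apart.

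Both subunits were lower on every TAC array than on the 3 scanned Sham arrays. The mean over the 48 large subunit genes, relative to Sham, was -0.03, 0.07 and -0.04 on Sham replicates 2, 3 and 4 and -0.35, -0.09, -0.10 and -0.13 on TAC replicates 1 to 4. For the 29 small subunit genes it was -0.03, 0.07 and -0.04 on the Sham arrays and -0.34, -0.08, -0.08 and -0.10 on the TAC arrays. TAC replicate 1 was thus far below the others and Sham replicate 3 the highest. Without TAC replicate 1 the TAC mean was -0.11 ± 0.02 (SD, n = 3) for the large and -0.09 ± 0.01 (SD, n = 3) for the small subunit, against -0.17 ± 0.12 (SD, n = 4) and -0.15 ± 0.13 (SD, n = 4) with it. The number of members with a lower mean was then 60 of 77, against 53.2% of all genes. The median log2 fold change was -0.10, against -0.01 over all genes. In 30 members the other 3 TAC arrays lay below every Sham array. Leaving out an array cannot make separated groups overlap, so this count could not have fallen, and its share over all genes was not computed.

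**Figure D1:**
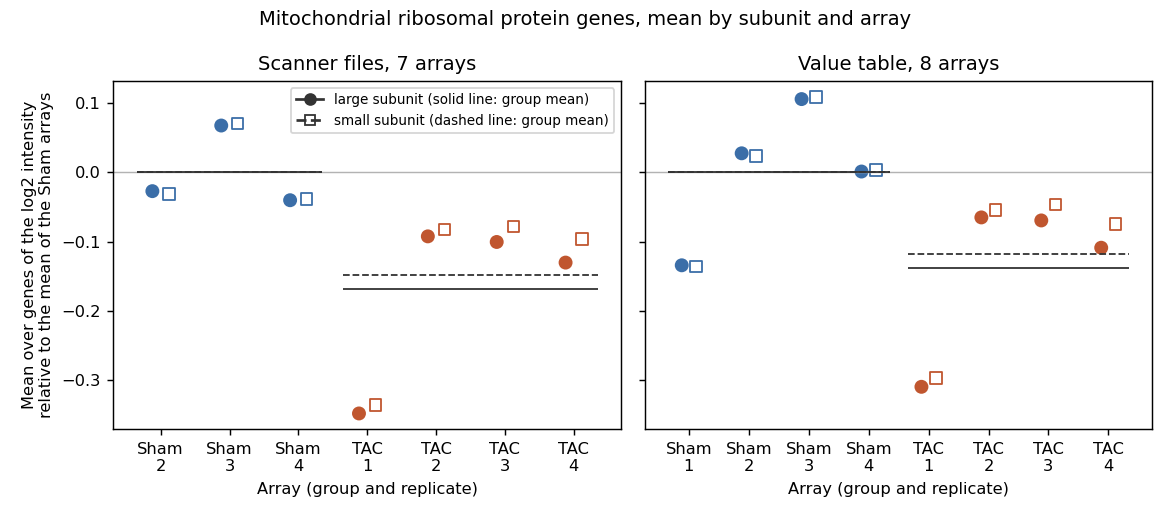
Mean over genes of the log2 intensity relative to the mean of the Sham arrays (vertical axis) for each array (horizontal axis), with filled circles for the large and open squares for the small subunit, blue for Sham and orange for TAC, and group means as solid and dashed lines. In the scanner files the TAC arrays lie between -0.35 and -0.08, below the Sham arrays, whereas in the table Sham replicate 1, at -0.13 and -0.14, lies below TAC replicates 2 to 4.

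With subunits taken by name, the mean of the large subunit was slightly below that of the small subunit on the TAC arrays. The large minus small difference was 0.004, -0.003 and -0.002 on Sham replicates 2 to 4 and -0.012, -0.010, -0.023 and -0.034 on TAC replicates 1 to 4. The TAC values were all below the Sham values. In the table of 8 arrays this was also so, with 0.002, 0.004, -0.003 and -0.002 on Sham replicates 1 to 4 and -0.013, -0.011, -0.023 and -0.035 on TAC replicates 1 to 4. The difference between the groups in this value was not tested. Mrps18a and Mrps30 count as small subunit here by their names, although they lie in the large subunit in structures. Both were above their Sham mean on TAC replicates 2 to 4. Counting them in the large subunit would raise its mean and lower that of the small subunit on those arrays. The difference per array was not computed by place in the structure. The separation therefore holds for subunits by name only and cannot be read as a difference between the subunits as they are built. The SD between genes on an array was 0.05 to 0.20 for the large and 0.05 to 0.17 for the small subunit. The median log2 fold change was -0.17 for the large and -0.16 for the small subunit, a difference of -0.005. Its sign turned when arrays were weighted, to 0.011. By place in the structure the difference was 0.004, with Mrps18a and Mrps30 counted in the large subunit and Mrps36 left out. A lower mean was found in 45 of 48 large and 25 of 29 small subunit genes. At an unadjusted p under 0.05, 11 large (22.9%) and 2 small subunit genes (6.90%) were lower, against 8.05% of all genes, so that the share of the small subunit was below that of all genes. In 20 large (41.7%) and 10 small subunit genes (34.5%) the groups did not overlap, against 10.8% of all genes. Leaving out Sham replicate 3 reduced the 11 large subunit genes to 1, and leaving out any other array left between 6 and 9. Without Sham replicate 3, 3 of the 77 members were lower at that p, against 588 of the 14989 genes tested. The share of the members was then near that of all genes. The difference between the subunits in these counts was not tested. With normexp background correction the 2 small subunit genes became 7, where 1427 of the 14989 genes tested were lower at that p.

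The table of all 8 arrays gave a smaller difference, with Sham replicate 1 near the level of the TAC arrays. In it the mean over the large subunit genes was -0.13, 0.03, 0.11 and 0.001 on Sham replicates 1 to 4 and -0.31, -0.07, -0.07 and -0.11 on TAC replicates 1 to 4. The small subunit means were -0.14, 0.02, 0.11 and 0.003 on the Sham and -0.30, -0.05, -0.05 and -0.07 on the TAC arrays. Sham replicate 1 was the lowest Sham array for 65 of the 77 members (84.4%), against 36.7% of all genes, and it lay below the highest TAC array for 70 members. The median log2 fold change was -0.14 for the large and -0.13 for the small subunit. At an unadjusted p under 0.05, 6 members (7.79%) were lower, against 8.89% of all genes. In 7 members (9.09%) every TAC array lay below every Sham array, against 6.51% of all genes. Both shares were near those of all genes, and all 6 and all 7 genes were among the 13 and the 30 of the scanner files.

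**Figure D2:**
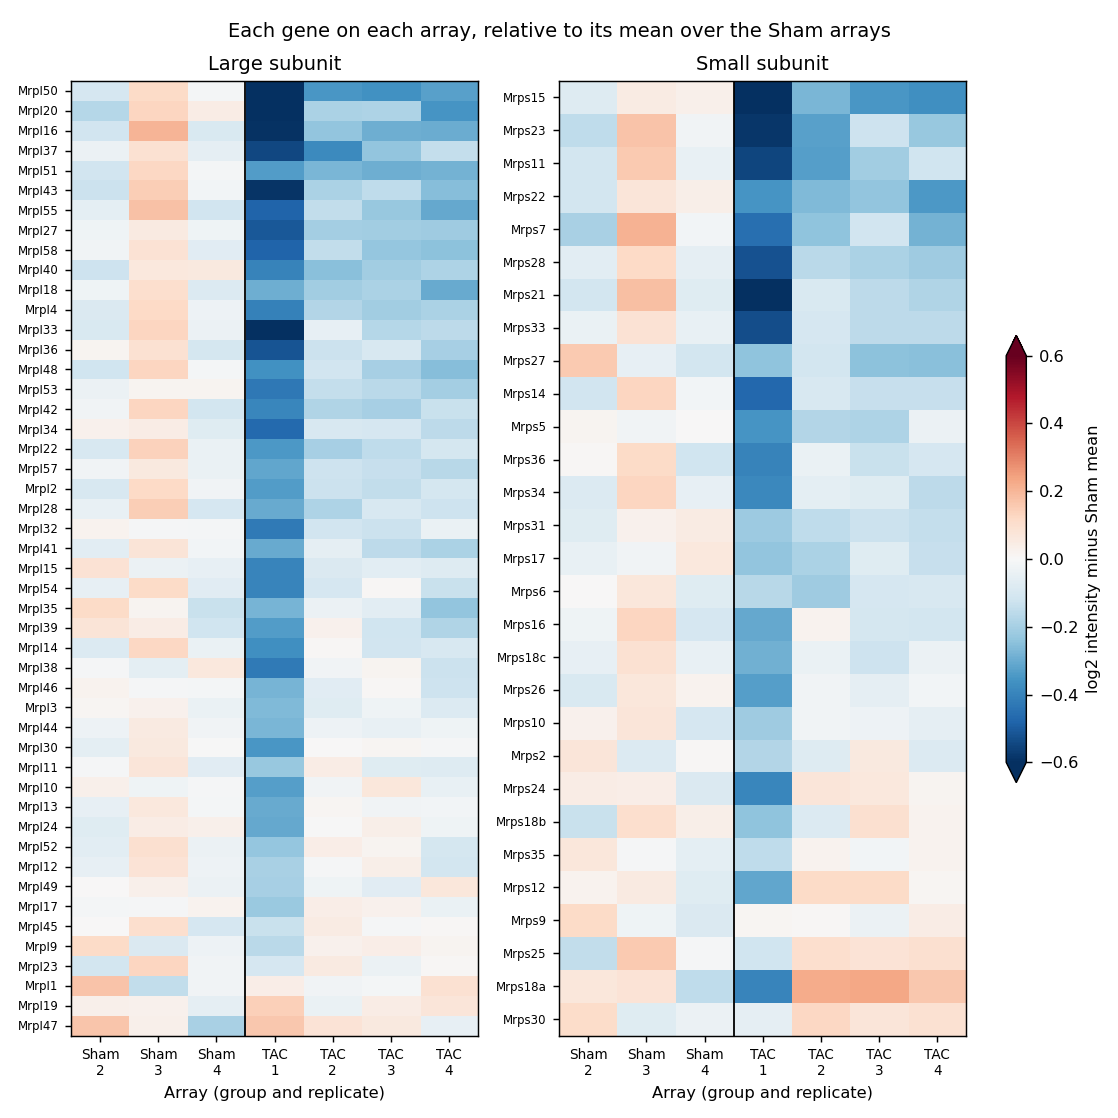
Log2 intensity of each gene minus its mean over the Sham arrays, in colour, with the 7 scanned arrays as columns, the 48 large and 29 small subunit genes as rows, and genes ordered by their log2 fold change. TAC replicate 1 was the lowest array for 67 of the 77 genes, and Sham replicate 3 the highest for 53.

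Several members of the large subunit are found around the site where amino acids are joined or along the tunnel. Mrpl16, homolog of a bacterial protein near the peptidyl transferase centre, was at 4.90, 5.22 and 4.92 in Sham (replicates 2, 3 and 4 in this order) and at 4.42, 4.77, 4.72 and 4.72 in TAC (replicates 1 to 4). Its groups did not overlap, TAC replicate 1 was the lowest, and the difference was -0.35 (SE 0.13, limma adjusted p = 0.345). Mrpl27, whose bacterial homolog reaches into the same centre, was at 4.96, 5.04 and 4.96 in Sham and at 4.47, 4.78, 4.77 and 4.77 in TAC. TAC replicates 2 to 4 lay close together and TAC replicate 1 lay lower, and the difference was -0.28 (SE 0.10, limma adjusted p = 0.349), with -0.29 at the other probe. Mrpl4, a protein of the tunnel wall, was lower by 0.24 (limma adjusted p = 0.370) with no overlap, and its other probe gave -0.09. Mrpl2 and Mrpl3, both close to the catalytic site, were lower by 0.18 and 0.11 (limma adjusted p = 0.480 and 0.610), and only in Mrpl2 of this pair did the groups not overlap. Mrpl23 and Mrpl24, which lie at the tunnel exit and were named after their values were seen, had log2 fold changes of -0.02 and -0.08 (limma adjusted p = 0.942 and 0.780) with overlapping groups.

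Mrpl50 had the lowest log2 fold change of all members. This protein of the mitochondrial large subunit was at 3.48, 3.69 and 3.56 in Sham and at 2.67, 3.23, 3.22 and 3.25 in TAC. All TAC arrays were below all Sham arrays, TAC replicate 1 by the most, and the difference was -0.49 (SE 0.16, limma adjusted p = 0.319). The second probe of the gene gave -0.23 (SE 0.08). Without TAC replicate 1 the difference of the first probe was -0.35.

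Mrpl51, another large subunit protein with no bacterial homolog, was at 7.16, 7.41 and 7.27 in Sham and at 6.943, 7.006, 6.985 and 6.995 in TAC. Here TAC replicate 1 was close to the other TAC arrays, the groups did not overlap, and the difference was -0.30 (SE 0.09, limma adjusted p = 0.277). In the table Sham replicate 1 was at 7.20 and the highest TAC array at 7.18, so that the groups still did not overlap with 4 Sham arrays. Mrpl37 and Mrpl40, also particular to mitochondria, were lower by 0.33 and 0.26 (limma adjusted p = 0.341 and 0.346), both with no overlap in the 7 scanned arrays and with overlap in the 8 of the table.

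Mrpl18, homolog of a bacterial protein that binds 5S ribosomal RNA, was at 4.69, 4.82 and 4.64 in Sham and at 4.42, 4.51, 4.52 and 4.41 in TAC. TAC replicate 4 was the lowest array, TAC replicate 1 lay beside it, and the difference was -0.25 (SE 0.08, limma adjusted p = 0.323). Mrpl58, a peptidyl-tRNA hydrolase that releases chains from stalled ribosomes, was lower by 0.28 (limma adjusted p = 0.354) with no overlap. Translation factors bind at the stalk. Mrpl11 at the base of the stalk had a difference of -0.08 and Mrpl12, which also binds the mitochondrial RNA polymerase, one of -0.07 (limma adjusted p = 0.721 and 0.762), and in both the groups overlapped. Mrpl10, which holds Mrpl12 in the stalk and was named after its values were seen, had a difference of -0.08 (limma adjusted p = 0.770) with overlapping groups, and -0.15 at its other probe. Mrpl45, which faces the inner membrane at the tunnel exit, had a log2 fold change of -0.02, which turned to 0.06 with quantile normalization and 0.02 without TAC replicate 1. Mrpl47, at the tunnel exit, had the highest log2 fold change of the large subunit, 0.06 (limma adjusted p = 0.826), with overlapping groups, and it turned to -0.03 without Sham replicate 4.

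**Figure D3:**
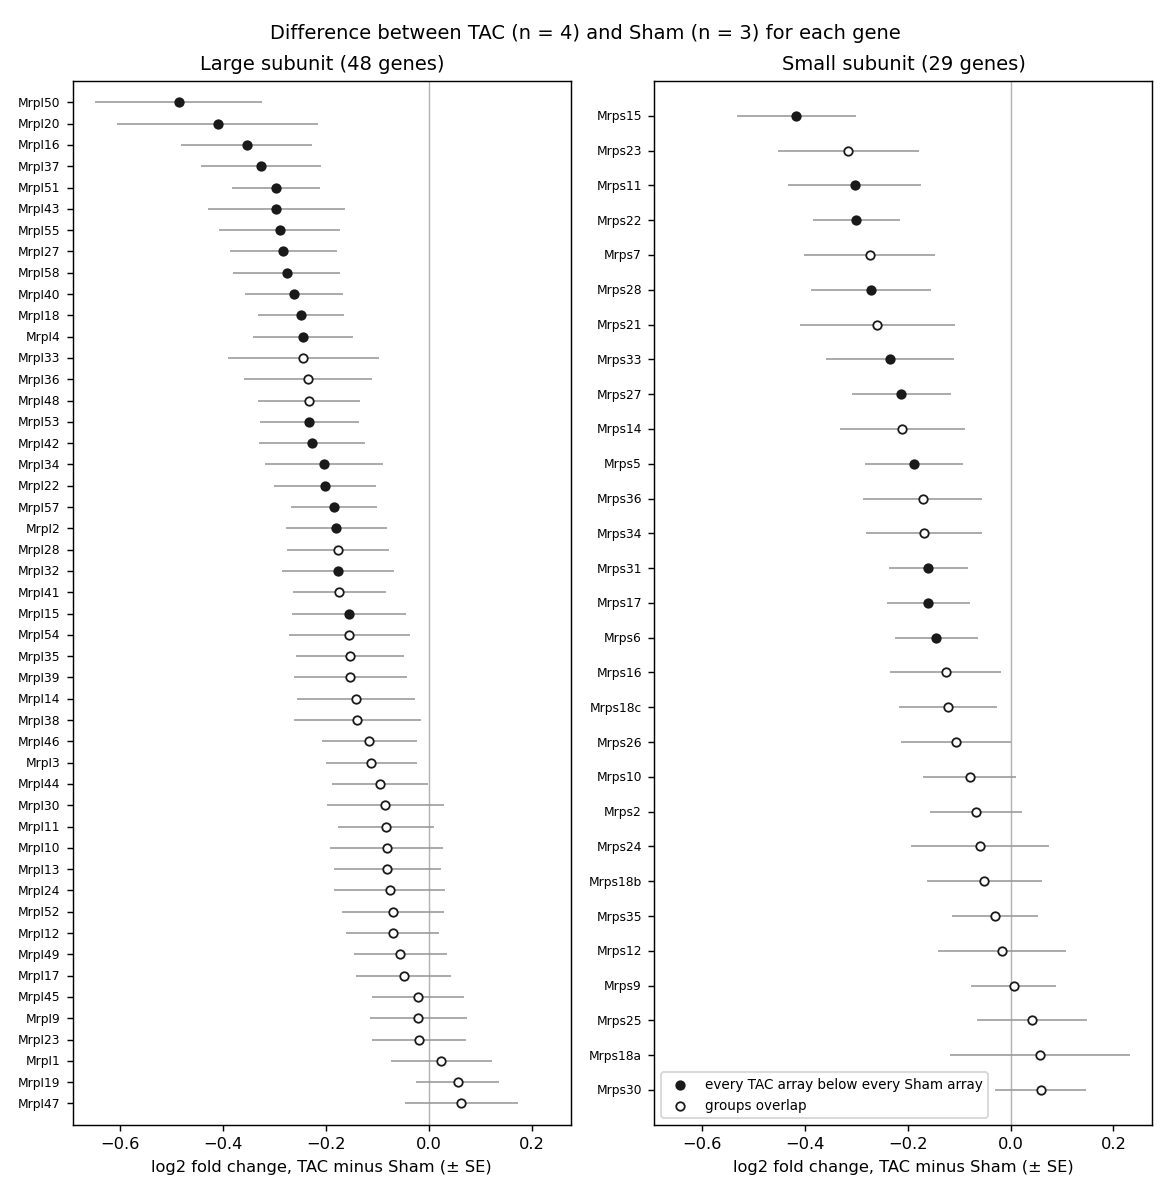
Log2 fold change of TAC (n = 4) minus Sham (n = 3) with its standard error for every member tested, large subunit on the left and small subunit on the right, ordered by value. Filled points mark the 20 large and 10 small subunit genes in which every TAC array lay below every Sham array, and values ran from -0.49 for Mrpl50 to 0.06 for Mrpl47.

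In the small subunit, Mrps15 had the lowest log2 fold change and the smallest p of all members. The bacterial homolog of this protein binds ribosomal RNA early in assembly. It was at 4.38, 4.51 and 4.49 in Sham and at 3.78, 4.18, 4.11 and 4.09 in TAC. No TAC array reached a Sham array, and the difference was -0.42 (SE 0.12, limma adjusted p = 0.268), or 25.1% lower. In the table Sham replicate 1 was at 4.38 and TAC replicate 2, the highest TAC array, at 4.36, so that all 4 Sham arrays lay above all 4 TAC arrays by a narrow margin.

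Mrps22, Mrps7 and Mrps16 are mutated in inherited defects of mitochondrial translation. Mrps22 was at 2.57, 2.75 and 2.71 in Sham and at 2.32, 2.41, 2.44 and 2.33 in TAC. These groups did not overlap, with a difference of -0.30 (SE 0.08, limma adjusted p = 0.273), but in the table Sham replicate 1, at 2.45, lay below all 4 TAC arrays, which ran from 2.51 to 2.62. Mrps7 and Mrps16 were lower by 0.27 and 0.13 (limma adjusted p = 0.425 and 0.638), and their groups overlapped.

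Mrps11, Mrps23, Mrps27, Mrps28 and Mrps31 completed, with Mrps15, Mrps22 and Mrps7, the 8 small subunit genes with the smallest p, with log2 fold changes of -0.30, -0.32, -0.21, -0.27 and -0.16 (limma adjusted p between 0.393 and 0.438). In Mrps23 the groups overlapped, and in Mrps11, Mrps27, Mrps28 and Mrps31 they did not. Mrps27, a protein particular to mitochondria, was at 1.77, 1.56 and 1.499 in Sham and at 1.37, 1.496, 1.36 and 1.36 in TAC. In this gene TAC replicate 2 was the high array of its group and nearly reached Sham replicate 4, while TAC replicate 1 lay with replicates 3 and 4.

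The paralogs Mrps18a, Mrps18b and Mrps18c differed among themselves. Mrps18a was at 5.08, 5.09 and 4.85 in Sham and at 4.61, 5.23, 5.24 and 5.17 in TAC. TAC replicate 1 was the lowest of the 7 arrays and the other 3 TAC arrays were the highest, so that the difference was 0.06 (SE 0.17) with all arrays, 0.21 without TAC replicate 1 and -0.02 without Sham replicate 4. Without TAC replicate 1 this was the 1 member in which every TAC array lay above every Sham array. Mrps18b had a log2 fold change of -0.05, which turned to 0.01 in the table of 8 arrays, with quantile normalization and without TAC replicate 1, and Mrps18c one of -0.12 (limma adjusted p = 0.863 and 0.610). Mrps30, which lies in the large subunit in structures, had the highest log2 fold change of the small subunit names, 0.06 (limma adjusted p = 0.795). Mrps12, at the decoding centre, had a log2 fold change of -0.02, which turned to 0.06 with quantile normalization and 0.08 without TAC replicate 1. Mrps36, now placed in the oxoglutarate dehydrogenase complex and not in the ribosome, was lower by 0.17 (limma adjusted p = 0.554) with overlapping groups, and its second probe gave -0.43 (SE 0.13, limma adjusted p = 0.278).

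**Figure D4:**
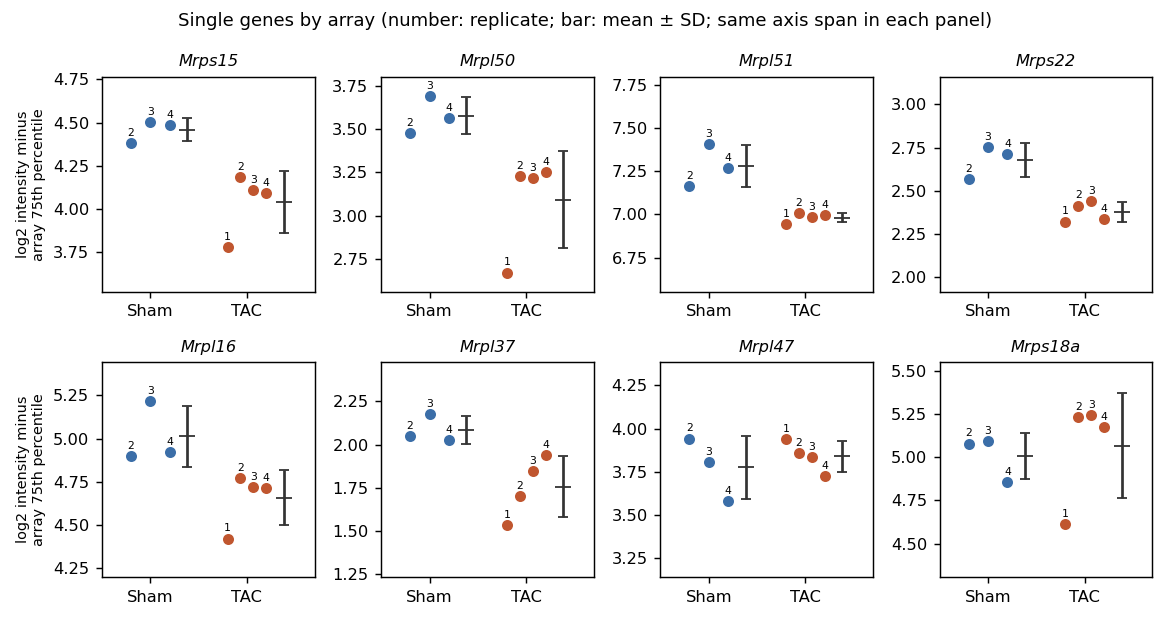
Log2 intensity minus the 75th percentile of the array (vertical axis, the same span in each panel) for 8 members on the 7 scanned arrays, blue for Sham and orange for TAC, with replicate numbers at the points and the mean ± SD of each group beside them. In Mrps15, Mrpl50, Mrpl51, Mrps22, Mrpl16 and Mrpl37 every TAC array lies below every Sham array, Mrpl47 overlaps, and in Mrps18a TAC replicate 1, at 4.61, lies far below the other TAC arrays.

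Of the 78 members, 22 had several probes, and in 21 of them the probes gave one direction. The exception, named after its values were seen, was Mrpl41, with log2 fold changes of -0.17 at its brighter and 0.12 at its dimmer probe. Of the 22 probes not used for the gene, 7 were lower at an unadjusted p under 0.05, against 2813 of the 33359 probes tested. Among them were those of Mrpl39, with a log2 fold change of -0.57 (SE 0.15, limma adjusted p = 0.256) against -0.15 at the brighter probe, and of Mrps23, with -0.38 against -0.32. Mrpl39 was also named after its values were seen.

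The members were also split by whether the bacterial ribosome has a homolog. In the large subunit, 19 of 19 genes particular to mitochondria had a lower mean, with a median log2 fold change of -0.18 and 9 genes whose groups did not overlap, against 10.8% of all genes. Of the 29 large subunit genes with a bacterial homolog, 26 had a lower mean, with a median of -0.15 and 11 genes without overlap. In the table of 8 arrays these 9 and 11 genes became 3 (15.8%) and 2, against 6.51% of all genes. The share of the genes with a homolog was then near that of all genes. In the small subunit the medians were -0.15 for 16 genes with a homolog and -0.16 for 13 without, and 15 and 10 had a lower mean.

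Proteins of the mitochondrial ribosome with other names were few. Of Dap3, Ptcd3, Chchd1, Aurkaip1 and Gadd45gip1, 4 had a lower mean, with a median of -0.12, and in 0 of the 5 did the groups part or the unadjusted p fall under 0.05 in either direction. Aurkaip1, with a log2 fold change of -0.24 (limma adjusted p = 0.461), and Chchd1, with -0.17, were the nearest to the threshold.

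Among 13 factors that act in or beside mitochondrial translation, 12 had a lower mean and the median was -0.10. Of these 13, 3 were lower and 0 higher at an unadjusted p under 0.05, against 8.05% and 3.97% of all genes. The table of 8 arrays also gave 3 lower genes. Gfm1, the elongation factor that moves the ribosome along, was at 5.28, 5.60 and 5.37 in Sham and at 4.95, 5.03, 5.02 and 5.11 in TAC. Its groups did not overlap, and the difference was -0.39 (SE 0.10, limma adjusted p = 0.249). Tsfm, which recharges the elongation factor Tufm, was lower by 0.32 (SE 0.09, limma adjusted p = 0.274), also with no overlap.

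Of 25 proteins that assemble the ribosome or modify its RNA, 24 were tested, 17 had a lower mean, the median was -0.08, and 2 were lower and 0 higher at that threshold, a share near the 8.05% of all genes. These were Malsu1, an assembly factor of the large subunit, lower by 0.26, and Spg7, a protease that takes part in maturing Mrpl32, lower by 0.31 (limma adjusted p = 0.384 and 0.388). The 22 proteins that take part in charging mitochondrial tRNAs, with Qrsl1, Gatb and Gatc counted among them, divided. Of them 13 had a lower and 9 a higher mean, the median was -0.15, and 9 (40.9%) were lower and 0 higher at an unadjusted p under 0.05, against 8.05% and 3.97% of all genes. With those 8 arrays 7 were lower (31.8%), against 8.89% of all genes. Cars2, for cysteine, was lower by 0.43 (limma adjusted p = 0.274) with no overlap. Cars2 was at 0.95 on TAC replicate 1 and at 1.16 to 1.41 on TAC replicates 2 to 4.

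For 18 proteins that keep, copy and process mitochondrial DNA and RNA, 14 had a lower mean, the median was -0.10, and 0 passed an unadjusted p of 0.05 in either direction. Ssbp1, which binds single-stranded mitochondrial DNA, was lower by 0.23 and Tefm, which keeps the mitochondrial RNA polymerase elongating, by 0.16 (limma adjusted p = 0.3998 and 0.411). Of 9 factors known to act on such genes, Nrf1, Gabpa, Gabpb1, Yy1, Esrra, Ppargc1a, Ppargc1b, Pprc1 and Myc, 6 had a lower mean and the median was -0.02, which turned to 0.03 with quantile normalization and without TAC replicate 1. The log2 fold change of Gabpa itself was 0.04 and that of its partner Gabpb1 0.22 (limma adjusted p = 0.3999), with every TAC array above every Sham array. Myc was at -0.22, -0.84 and -0.57 in Sham and at 0.43, -0.20, -0.13 and 0.12 in TAC. Its TAC arrays all lay above its Sham arrays, with a difference of 0.60 (SE 0.20, limma adjusted p = 0.326).

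**Figure D5:**
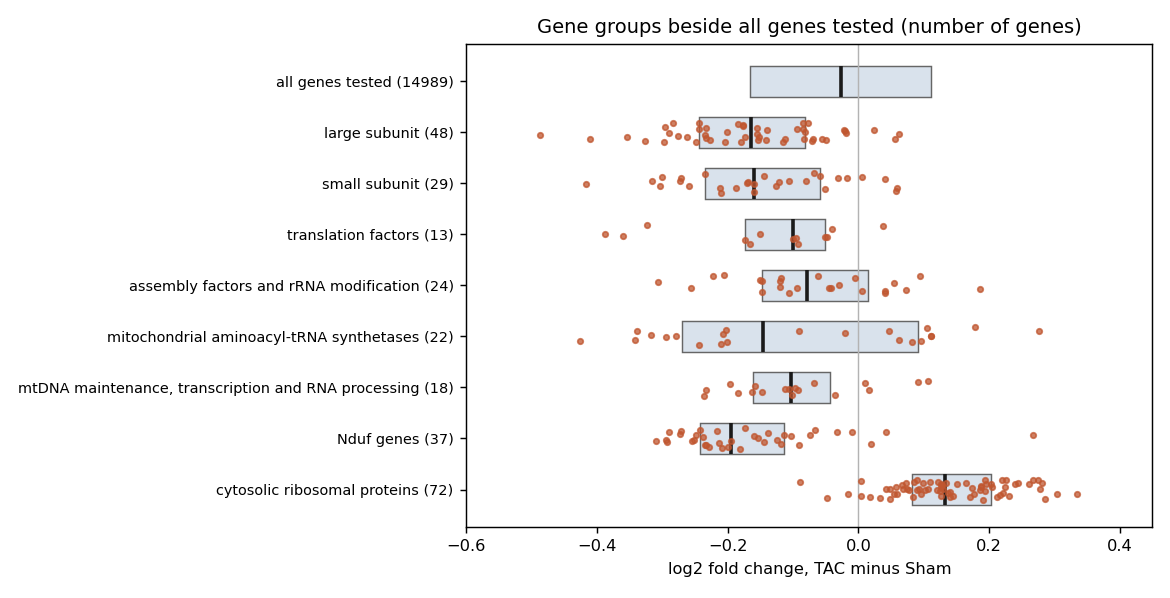
Log2 fold change of TAC minus Sham (horizontal axis) for gene groups, with boxes from the lower to the upper quartile, a line at the median, a point for each gene and the number of genes in brackets; for all genes tested only the box is drawn. The medians are -0.17 for the large and -0.16 for the small subunit, -0.20 for the Nduf genes, 0.13 for cytosolic ribosomal proteins and -0.03 for all genes.

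Beside these, 2 larger groups of nuclear genes were read for comparison. The first held 37 Nduf genes, named for complex I of the respiratory chain, to which mitochondrial ribosomes supply the partner subunits. It includes Ndufa4, now placed in complex IV, and its paralog Ndufa4l2. Of the other 35 genes 33 had a lower mean, the median was -0.20, and 5 were lower and 0 higher at an unadjusted p under 0.05, against 8.05% and 3.97% of all genes. Ndufb6 and Ndufa10 were lower by 0.31 and 0.29 (limma adjusted p = 0.307 and 0.317), both with no overlap. In these 35 genes the groups did not overlap in 10, against 10.8% of all genes. In the table of 8 arrays 1 was lower at that p, against 8.89% of all genes, and 0 had groups without overlap, against 6.51%. Among 72 proteins of the cytosolic ribosome 69 had a higher mean, the median was 0.13, and 0 were lower and 15 higher at that threshold, against 8.05% and 3.97% of all genes. Every TAC array was above every Sham array in 27 of them (37.5%), against 5.36% of all genes. Over the same 8 arrays 23 were higher, against 4.09% of all genes, and 24 had every TAC array above every Sham array, against 3.22%. Rpl27a and Rps3a1 were higher by 0.33 and 0.30 (limma adjusted p = 0.223 and 0.268). The median of the cytosolic group lay between 0.11 and 0.22 under the other scalings, and that of the mitochondrial ribosomal proteins between -0.18 and -0.09, so neither turned its sign. The median of all genes tested lay between -0.05 and -0.003 under these scalings.

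The marker lists of brown adipocytes, macrophages, lymphocytes and proliferation had their most extreme mean on TAC replicate 1, far from the other arrays. That of skeletal muscle was also highest there, at 1.62, but close to TAC replicate 4 at 1.501. Those of endothelium and red cells did not set TAC replicate 1 apart. All 15 brown adipocyte markers were tested and 13 had a lower mean, with a mean over the list of -1.05 on TAC replicate 1, -0.26, -0.13 and -0.47 on the other TAC arrays and between -0.09 and 0.16 on the Sham arrays. The summed intensity of this list, in units of the 75th percentile, ran from 4939 to 5971 in Sham and from 3975 to 5269 in TAC. Ucp1, which defines the tissue, was at 9.40, 9.70 and 9.53 in Sham and at 8.37, 9.22, 9.17 and 8.97 in TAC, well above background on each array and lowest on TAC replicate 1. All 12 macrophage markers were tested, and their mean was 1.24 on TAC replicate 1. The other TAC arrays had means of -0.33 to -0.09 and the Sham arrays of -0.20 to 0.19. Their summed intensity ran from 46.5 to 50.5 in Sham and from 39.8 to 81.5 in TAC. Of the lymphocyte markers 7 of 10 were tested, with a sum of 8.79 to 9.22 in Sham and 8.63 to 9.92 in TAC. Their mean was 1.01 on TAC replicate 1, -0.34 to -0.02 on the other TAC arrays and -0.16 to 0.23 on the Sham arrays. Cd79a and Ms4a1, which mark B cells, were each well above background on 1 of 7 arrays.

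The 12 skeletal muscle markers were all tested, and all 12 had a higher mean in TAC. The median of their log2 fold changes was 1.02, with 0 at an unadjusted p under 0.05. Their mean over the list was -0.89, 0.84 and 0.05 on Sham replicates 2 to 4 and 1.62, 1.20, -0.56 and 1.501 on TAC replicates 1 to 4, so that 3 TAC arrays were high and TAC replicate 3 was not. The sum ran from 45.5 to 163 in Sham and from 57.7 to 267 in TAC. The 5 endothelial markers had a sum of 29.5 to 31.7 in Sham and 29.4 to 32.3 in TAC. The erythroid list, with 4 of 6 tested, summed to 559 to 987 in Sham and 467 to 772 in TAC, and the proliferation list, with 5 of 6 tested, to 0.838 to 1.17 in Sham and 0.813 to 2.56 in TAC, the latter with a mean of 1.04 on TAC replicate 1. The part of these cell types in the values of the mitochondrial ribosomal proteins was not tested.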

How the data were processed

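BAT RNA of 8 samples, 4 Sham and 4 TAC by their titles, was labelled with Cy3 and hybridized to one-colour Agilent arrays. The authors extracted the spots with Feature Extraction 10.7.1.1, per the labels, and deposited background-subtracted intensities of 7 arrays without scaling. A second deposited file gives intensities for the full set of 8 arrays, and how it was made is not given in the sources used here. Its values are scanner intensities over the array's 75th percentile: for probes above 100 units, all of its values on the 7 scanned arrays differed by under 1% from the scanner value times a constant of the array. The text of the paper does not report these arrays.

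Control spots and spots with the outlier mark of the extraction software were dropped, from 59305 noncontrol spots. The log2 intensity minus the array's 75th percentile was averaged over the spots of a probe. Testing required a signal well above background on 3 or more arrays and values on 2 or more arrays per group. TAC was set against Sham in limma 3.58.1 (lmFit, eBayes; R 4.3.3), with adjustment by Benjamini-Hochberg over 33359 probes, and tested on simulated data. Same-numbered arrays deviated from their group means with correlations of 0.002, -0.03 and -0.02 (replicates 2, 3 and 4) in the scanner files. In the table the correlation was 0.27 for replicate 1 and 0.02, 0.06 and 0.02 for replicates 2, 3 and 4. These correlations cannot show whether the replicate numbers pair the samples. On each scanned array the replicate number was also the slide column. In the table, replicate 1 had the lowest mean of its group for both subunits, in Sham and in TAC, and a shared cause was not tested. The main test used no block, and the replicate block was run as an alternative. The number of arrays limits the precision. Symbols came from RefSeq (GRCm38.p6) by accession and named 28026 of 55681 probes. For genes with several probes, the brightest on average (log2 scale) was taken.

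Members, lists and motifs were chosen with earlier results of these data known. The 30 members that the rule names are, in each subunit, the 8 with the smallest p and the highest and lowest log2 fold change, members with probes of opposite direction of which one is at an unadjusted p under 0.05, and 16 chosen for their role. Of each companion list, 2 genes with the smallest p are named, with an exception that is not reported here, and the transcription factors of the promoter motifs were named besides. Alternatives were the table of 8 or of the same 7 arrays, the table without TAC replicate 1, normexp (offset 50), median centring, quantile normalization, no filter on dim probes, a filter on every array, the methods' t-test, array weights, the replicate block, averaging a gene's probes, subunits by place in the structure, and each array left out.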

Additional observations from a re-analysis of the deposited data

Results flagged for a closer look

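In each set of 4 arrays, the gap of the highest or the lowest array to its nearest neighbour was divided by the range of the 4. This was done for the subunit means, their difference and the 30 named members, over the 4 scanned TAC arrays and the 4 Sham arrays of the table, 66 sets in all. A lone array was found in 9 sets. For 1 set taken alone chance gives about 1 in 20. The sets share arrays and genes, so the 9 cannot be set against that rate. TAC replicate 1 was the lone low array in the mean of the large subunit (gap 0.852 of the range) and of the small subunit (0.929). It was also the lone low array in Mrpl16 (0.832), Mrpl27 (0.968), Mrpl4 (0.851), Mrpl50 (0.940), Mrps28 (0.860) and Mrps18a (0.889). In Mrps18a it lay at 4.61 and the other 3 TAC arrays between 5.17 and 5.24, above every Sham array. In Mrps27 the lone array was TAC replicate 2 (0.928), at 1.496 above 1.36 to 1.37 on the others.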

How the results depend on the processing

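Under each alternative run, 0 members passed an adjusted p of 0.05 and 0 were higher at an unadjusted p under 0.05, and the medians of both subunits stayed below 0. The cause of each change given here was not tested. In the table of 8 arrays, 5 large and 1 small subunit genes were lower at an unadjusted p under 0.05, against 8.89% of all genes. There 5 and 2 had groups without overlap, against 6.51% of all genes. Without TAC replicate 1 the first counts were 2 and 1. These 3 of 77 members were a smaller share than the 1222 of 14989 genes tested. The second counts, which cannot fall when an array is left out, were again 5 and 2, and their share over all genes was not computed. In 1 member every TAC array then lay above every Sham array. In the table of the same 7 arrays, 6 small subunit genes were lower at that p, against 1418 of the 14989 genes tested. With normexp the count was 7, against 1427, and with quantile normalization 5, against 1150. It was 5 with the filter on every array and 6 with the methods' t-test. Array weights gave 4, as did the mean of all probes. For the large subunit the count was 7 with no filter on dim probes. The share over all genes was not computed for these last settings. The table of 7 arrays, normexp and array weights each gave 1 lower probe past the adjusted p over all probes. The large minus small difference of medians was -0.019 with normexp, -0.025 with quantile normalization, -0.015 with no filter, 0.011 with array weights and 0.0044 by place in the structure.

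With the replicate block, the 7 scanned arrays gave 3 large subunit genes lower at an unadjusted p under 0.05, and TAC replicate 1, which has no partner there, no longer counts. The replicate block on the 8 arrays of the table gave 6 small subunit genes. The share of all genes lower at that p was not computed with the block. Without overlap were again 5 large and 2 small subunit genes, against 6.51% of all genes, counts that the block does not change.

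Leaving out one array at a time gave 1 to 9 large subunit genes at that p (1 without Sham replicate 3) and 2 to 4 of the small subunit. Of the 14989 genes tested, 588 were lower at that p without Sham replicate 3 and 1201 without TAC replicate 1. For the other arrays this was not computed. Groups without overlap were found in 20 to 26 large and 10 to 16 small subunit genes, counts that cannot fall when an array is left out. Their share over all genes was not computed, so these counts have no background to be read against. In 0 to 1 members every TAC array lay above every Sham array (Mrps18a without TAC replicate 1, Mrpl19 without TAC replicate 2). The large minus small difference ran from -0.033 to -0.0066. Over all probes, 0 to 6 were higher and 0 to 1 lower past the adjusted p (6 and 1 without TAC replicate 4), and 891 to 1562 were higher and 1601 to 2993 lower before adjustment (891 and 1601 without Sham replicate 3).

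Of 600 values of the 30 named members, 24 turned their sign, all in 5 genes. As a log2 fold change, Mrps12 was at 6.5e-05 in the 8-array table, blocked or not, 0.095 there without TAC replicate 1, 0.058 with quantile normalization, 0.054 with array weights and 0.080 with the replicate block on 7 arrays, and ran from -0.061 to 0.080 with one array left out. Mrps18b was at 0.0090, 0.069, 0.015 and 0.012 in the same table (with and without the block), there without TAC replicate 1, with quantile normalization and with the block on 7 arrays, and ran from -0.12 to 0.012. Mrpl45 was at 0.015 in the table without TAC replicate 1, 0.055 with quantile normalization, 0.018 with array weights and 0.016 with the block on 7 arrays, and ran from -0.071 to 0.028. Mrpl47 was at -0.027 in the table without TAC replicate 1 and ran from -0.034 to 0.15, and Mrps18a ran from -0.020 to 0.21. The number of arrays and the signal of Mrpl21, which is not above background, limit the precision.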
